A study of Mus musculus with 3 samples.

Results

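The spots described here were those richest in transcripts of neural tube progenitors, the dividing neuroepithelium that builds the spinal cord. They came from 2 frozen sections of mouse embryonic axial skeleton profiled with Visium, a spatial assay whose array spots carry a position barcode each and can collect RNA from several neighbouring cells. A spot was a member when its summed UMIs (unique molecular identifiers, which count captured RNA molecules) of Msx3, Hes5, Sox2 and Sox3, divided by all UMIs of the spot, lay in the top 4% of its section. Of 1561 spots with at least 1000 UMIs in the section of embryonic day E11.5, 62 were members, and of 1014 at E12.5, 41 were. The 103 members stand beside 2575 spots in both sections and 3935 in the series, where a section of E13.5 enters only as a check. Each stage was 1 section of mouse tissue labelled as bone, with the stage read from the sample title. The sources used here do not give the genotype, strain, sex or number of embryos.

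The neural tube begins as an epithelium whose cells divide at the inner, apical surface and release newborn neurons to the outer side. Sox2 and Sox3 are SoxB1 transcription factors that hold cells in the progenitor state, Hes5 is a repressor switched on by Notch signalling, and Msx3 is a homeobox gene of the dorsal part of the tube. Neighbouring cells hold each other back from differentiating through Notch and its ligand Dll1, while proneural factors such as the neurogenins drive cells out of the cycle. Wnt and BMP signals from the roof plate and Shh from the floor plate divide the progenitors into dorsal and ventral domains, each with its own transcription factors and its own class of neurons.

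Because Hes5 was among the genes that chose the spots, its upstream sequence is shown as the textbook example of how Notch is read out at a promoter. The 250 bases before the Hes5 start site (RefSeq, GRCm38.p6, chr4:154960673-154960922, plus strand) are given 5′ to 3′, and capitals mark matches on either strand to GTGGGAA, the core bound by RBPJ, the DNA-binding partner of the cleaved Notch receptor.
Hes5 upstream: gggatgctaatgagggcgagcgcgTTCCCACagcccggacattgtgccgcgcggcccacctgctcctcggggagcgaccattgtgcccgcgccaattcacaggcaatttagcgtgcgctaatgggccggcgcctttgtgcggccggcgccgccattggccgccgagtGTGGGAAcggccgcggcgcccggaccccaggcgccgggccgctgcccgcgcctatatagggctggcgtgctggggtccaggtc
The 2 matches lie 226 to 220 bases before the start on the minus strand and 83 to 77 bases before it on the plus strand. Of 32851 promoters in the same table, 1779 (5.42%) held the 7 letters in the 250 bases before their start. Of the 22 promoters found for 17 genes of the Notch list, 2 did, those of Lfng and Hey2. A match describes letters and is not a measured binding site.

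The host transcript of a microRNA was among the genes most enriched in the members, so the microRNA is shown as well. Mir9-3hg is the long RNA from which mir-9-3 is cut, and miR-9 is a microRNA of neural progenitors and young neurons. The mature strand (RefSeq, GRCm38.p6, chr7:79505279-79505301, plus strand) is written 5′ to 3′ with its seed, bases 2 to 8, in capitals.
mmu-miR-9-5p: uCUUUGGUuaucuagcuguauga
The same mature sequence is listed for Mir9-1 and Mir9-2. The files measure the host RNA only and say nothing of the mature strand.

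The members were shallow at E11.5. They held 755083 UMIs there, with 3255 in the lowest spot, 10822.5 in the median spot and 27052 in the highest, against a median of 27723 in the 1499 other spots. At E12.5 they held 816673 UMIs, with 2208, 19131 and 35415 in the lowest, median and highest spot, against a median of 24657 in the 973 other spots. The part of depth in the results was not tested. The score that chose the members was also lower at E12.5, with a lowest, median and highest value of 6.63, 12.4 and 20.2 UMIs per 10000 against 14.9, 19.2 and 39.6 at E11.5. The last spot taken held 14 scoring UMIs of 9391 at E11.5 and 18 of 27156 at E12.5, and the first left out 12 of 8077 and 27 of 43113. The sections shared 434 spot barcodes, which come from the array's fixed list, and no barcode was a member in both.

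Levels are UMIs of a gene per 1000000 UMIs (CPM), pooled over the spots of a group, and every ratio carries an exact 95% interval that covers counting error only. With 1 section per stage no test was possible, and stage, embryo, section plane and axial level cannot be told apart. A gene is called higher or lower when its ratio was at least 2 or at most 0.5, among genes with at least 50 UMIs in the section. Of 13969 such genes at E11.5, 8.50% were higher in the members than in the other spots and 22.1% lower. At E12.5, of 13248 genes, 8.24% were higher and 18.2% lower, and of 13072 genes counted in both sections 4.09% were higher in both and 12.1% lower in both. The interval stayed clear of 1 for 949 of the 1187 genes higher at E11.5 and for 1401 of the 3082 lower ones, and at E12.5 for 978 of 1091 and 1444 of 2414. The median log2 ratio over all genes was 0.12 at E11.5 and 0.09 at E12.5, so list medians below are to be read against a small upward shift. Since the spots were chosen on the same readout, these contrasts describe the members and test nothing. In tissue spots, fewer cells of a kind and less RNA per cell cannot be told apart.

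Genes of the neuroepithelium other than those used for the score were high in the members. Beyond the 4 scoring genes, 16 of 18 counted genes of the neuroepithelium and radial glia list were higher at E11.5 and 11 of 17 at E12.5, none was lower, and the list's median log2 ratio was 2.42 and 2.38. Pax6, a homeobox factor of neural progenitors, stood at 70.2 CPM in the members and 4.04 in the other spots at E11.5, and at 47.8 and 1.78 at E12.5. Sox21, a further Sox factor of the neural tube, was 11.9-fold higher (8.61 to 16.1) and 24.0-fold higher (16.5 to 34.8). Sox1, another SoxB1 gene, rested on 20 and 17 UMIs and was 8.43-fold (4.99 to 13.5) and 22.3-fold (11.2 to 43.7) higher. Fabp7, a lipid carrier of radial glia, had UMIs in every member of both sections. The widely shared genes of the list differed less. Nes, an intermediate filament of progenitors that is also found outside the nervous system, was 1.26-fold (1.07 to 1.47) and 1.37-fold (1.15 to 1.62) higher, and Cdh2, the N-cadherin of the apical junctions, 1.53-fold in both. Genes of the forebrain, midbrain and eye were low, at a sum of 39.7 CPM in E11.5 members and 26.9 in E12.5 members against 84.2 and 63.9 in other spots. Of the 12 listed, Otx1, Otx2, Emx1, Emx2, Six3 and Rax were among those that had 0 UMIs in the members of both sections, which allows up to 3.97 CPM at E11.5 and 3.67 at E12.5.

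By the naming rule (largest fold in both sections with at least 100 UMIs in the members of each), the leading genes of 81 that met it included Adgrv1, Rfx4, Mir9-3hg, Sall1, Wnt7b, Fgfbp3, Pantr1, Dll1, Ttyh1, Phyhipl and Sema5b. Adgrv1, a very large adhesion receptor, stood at 305.9 CPM in members and 14.1 in other spots at E11.5, a ratio of 21.7 (18.6 to 25.3), and at 202 and 8.80 at E12.5, a ratio of 23.0 (18.6 to 28.3). It had UMIs in 56 of 62 members and 32 of 41. Rfx4, a transcription factor of neural tube patterning, was 18.7-fold (15.6 to 22.4) and 27.6-fold (21.6 to 35.4) higher. Mir9-3hg was detected in 62 of 62 and 40 of 41 members, at 625.1 and 613.5 CPM, and was 17.3-fold and 24.2-fold higher than in other spots. Sall1, a zinc finger factor, was 13.4-fold (11.2 to 16.1) and 17.6-fold (14.3 to 21.5) higher. Pantr1, a long noncoding RNA beside Pou3f3, was 11.2-fold and 13.3-fold higher while its neighbour Pou3f3, a POU factor of the central nervous system, was 5.74-fold and 5.72-fold higher. Fgfbp3, a carrier of fibroblast growth factors, was uneven: it stood at 411.9 CPM against 27.5 at E11.5 and at 325.7 against 28.3 at E12.5, with UMIs in 38 of 62 and 15 of 41 members, and at E12.5 the 5 leading spots held 71.4% of them. The E12.5 ratio of Fgfbp3 was 3.98 in the top 3% of spots and 18.8 in the top 5%, and the E11.5 ratio 5.15 with Hes5 and 29.9 with Msx3 left out of the score. Sema5b, a semaphorin, Ttyh1, a chloride channel of neural stem cells, and Phyhipl had ratios between 8.87 and 12.9 in both sections, and Ttyh1 4.97 at E11.5 with Hes5 left out of the score. A second comparison group was the neuron-rich spots, 62 and 41 of the other spots chosen for their share of Tubb3, Stmn2, Elavl3, Elavl4 and Dcx. Rfx4 stood there at 0.998 CPM at E11.5 and 4.67 at E12.5, and Sall1 at 10.5 and 18.7.

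**Figure D1:**
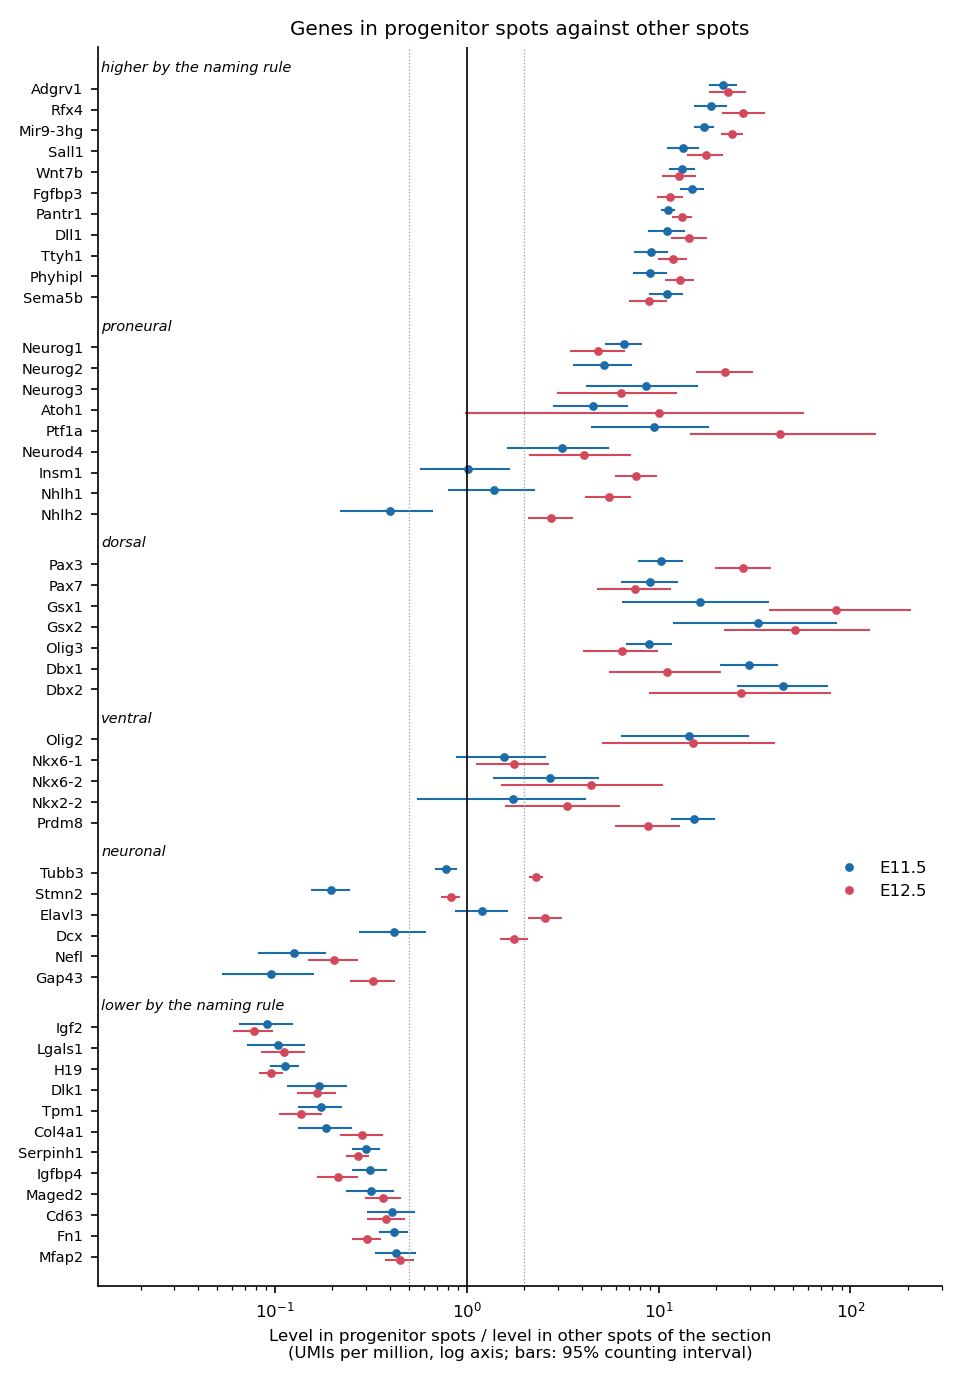
Ratio of the level in progenitor spots to that in the other spots of the same section (x axis, log scale) for genes grouped by list or naming rule, with E11.5 in blue and E12.5 in red; bars are 95% counting intervals and dotted lines mark ratios of 0.5 and 2. Rfx4 reached 27.6 at E12.5, Insm1 lay at 1.01 at E11.5 and 7.64 at E12.5, and Igf2 stood at 0.0915 and 0.0777.

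The Notch pathway was represented by its receptors, ligands and targets. Of 22 list genes counted, 10 were higher and 2 lower in each section, and the list's median log2 ratio was 0.86 and 0.66. Notch1, the main receptor of neural progenitors, stood at 331.1 CPM against 58.3 at E11.5 and at 259.6 against 46.9 at E12.5, ratios of 5.67 (4.96 to 6.46) and 5.54 (4.76 to 6.42). Notch3 was 2.38-fold higher (1.96 to 2.88) at E11.5 and 1.57-fold (1.26 to 1.95) at E12.5, and Notch2 lay at 1.15 and 0.857 with intervals that include 1. Among the ligands, Dll1 was 11.02-fold (8.93 to 13.5) and 14.4-fold (11.7 to 17.7) higher. Dll3, which acts inside the cell that makes it, was 3.51-fold (2.66 to 4.56) and 8.51-fold (6.88 to 10.5) higher. Jag1 was 2.47-fold and 2.62-fold higher, and the vessel ligand Dll4 lay at 0.993 and 1.12 with 6 UMIs in each section. The fringe enzymes, which tune the receptor's choice of ligand, split: Lfng was 8.42-fold and 7.31-fold higher, Mfng 3.21-fold and 4.92-fold, and Rfng lay at 1.21 and 1.03. Of the targets, Nrarp, a feedback inhibitor, was 7.60-fold and 9.06-fold higher, whereas Hes1 lay at 1.36 (0.912 to 1.95) and 0.882 (0.646 to 1.18). Heyl, a target in vessels and muscle, was lower in both sections, on 3 and 6 UMIs. Hes6, which works against the Hes repressors, was 4.12-fold and 3.92-fold higher. Dtx4, a ubiquitin ligase of the pathway, was 9.81-fold and 6.80-fold higher.

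Proneural genes were high in the members of both sections. At E11.5, 8 of 13 genes counted were higher and 2 lower, and at E12.5 10 of 11 were higher and none lower, with median log2 ratios of 2.21 and 2.72. The summed level of the list was 3.52-fold that of other spots (3.203 to 3.870) at E11.5 and 6.68-fold (6.12 to 7.29) at E12.5. Similar spots shared much of this level. At E11.5 the sum was 618.5 CPM in members, 606.7 in the 62 spots ranked next by the score and 473 in neuron-rich spots. At E12.5 it was 760.4 in members, 603.5 in the 41 spots ranked next and 347 in neuron-rich spots. Neurog2 was 5.20-fold (3.65 to 7.23) and 22.1-fold (15.9 to 30.5) higher. Neurog1 stood at 132.4 CPM in members at E11.5 and 57.6 at E12.5, where 5 spots held 76.6% of its UMIs. Atoh1, the factor of the most dorsal interneurons, had 24 UMIs in 7 of 62 members at E11.5 and 2 UMIs at E12.5. Genes that act after the proneural step had another pattern. Insm1, Nhlh1 and Nhlh2, factors of newly born neurons, lay at ratios of 1.01 (0.578 to 1.66), 1.39 (0.807 to 2.25) and 0.398 (0.222 to 0.657) at E11.5. At E12.5 they were 7.64-fold (5.99 to 9.65), 5.50-fold (4.19 to 7.12) and 2.76-fold (2.11 to 3.56) higher than in other spots. Neurod2 had 0 UMIs in the E11.5 members and 42 in the E12.5 members, at least 12.9-fold higher when 3 UMIs are set for the count of 0.

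Dorsal and ventral progenitor genes had higher summed levels in the members. At E11.5 which of the 2 sums had the larger ratio depended on Msx3, a dorsal gene used in the score. The summed dorsal list was 5.76-fold and the ventral list 4.59-fold that of other spots at E11.5, and 3.84-fold and 2.71-fold at E12.5. With Msx3 left out of the score, the E11.5 ratios were 4.65 and 7.08 and the E12.5 ratios 3.67 and 3.44, and with Hes5 left out the E11.5 ventral ratio was 1.65. In the top 3% of spots the E12.5 ventral sum lay below that of other spots, at a log2 ratio of -0.25. Of the dorsal progenitor list, 8 of 9 counted genes were higher at E11.5 and 6 of 8 at E12.5, and of the ventral list 3 of 6 and 2 of 4. Pax3, which marks the dorsal progenitors, was 10.3-fold (7.94 to 13.3) and 27.6-fold (19.9 to 38.3) higher, and Pax7 9.05-fold (6.46 to 12.4) and 7.55-fold (4.85 to 11.4). Gsx1 and Gsx2, homeobox genes of the middle dorsal domains, were sparse and found in a larger share of members than of other spots. Gsx1 had a UMI in 7 of 62 members and 26 of 1499 other spots at E11.5, and in 17 of 41 and 9 of 973 at E12.5, a ratio of 83.9 (37.9 to 204). Gsx2 had one in 7 members and 11 other spots at E11.5, and in 13 and 9 at E12.5. Dbx1 and Dbx2, which mark the progenitors in the middle of the tube, were 29.7-fold (21.0 to 41.5) and 44.5-fold (25.9 to 75.8) higher at E11.5 and 11.1-fold (5.57 to 21.0) and 26.9-fold (9.02 to 78.4) at E12.5. Within the members, Dbx1 was lower at E12.5, with a stage ratio of 0.235 (0.121 to 0.429) against 0.628 in other spots. Olig2, of the motor neuron progenitor domain, was 14.4-fold (6.44 to 29.4) and 15.1-fold (5.16 to 40.0) higher, yet on 10 and 7 UMIs in 6 and 2 spots. Nkx6-1, a broader ventral factor, lay at 1.57 (0.892 to 2.57) and 1.77 (1.13 to 2.65). Of the roof plate list, 3 of 8 genes counted were higher and 4 lower at E11.5, with a summed ratio of 0.711 (0.545 to 0.911), and 4 of 6 were higher and 1 lower at E12.5, with a summed ratio of 3.19 (2.58 to 3.90). Lmx1a, Rspo1 and Rspo3 were among those lower at E11.5, on 1, 5 and 0 UMIs. Wnt1, the dorsal signal of this list, was 13.4-fold (6.02 to 27.1) and 27.9-fold (11.6 to 66.3) higher on 10 and 12 UMIs in 5 and 4 members. Msx1 went in opposite directions in the 2 sections, at a ratio of 0.419 (0.248 to 0.664) at E11.5 and 7.92 (5.39 to 11.4) at E12.5. Its level in members was 23.8 and 46.5 CPM, and that in other spots 56.9 and 5.88.

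Spot by spot, most members held dorsal UMIs and no ventral ones. Since the dorsal gene Msx3 helped choose the members, the rule favoured dorsal spots, and these counts were not made without Msx3. Summed UMIs of Pax3, Pax7, Gsx1, Gsx2 and Olig3 exceeded those of 6 ventral genes (Olig1, Olig2, Nkx6-1, Nkx6-2, Nkx2-2 and Nkx2-9) in 46 of 62 members at E11.5 and 31 of 41 at E12.5. Ventral UMIs exceeded dorsal ones in 10 and 7 members. The dorsal sum had a lowest, median and highest level of 0, 2.41 and 8.01 UMIs per 10000 at E11.5 and 0, 1.84 and 5.47 at E12.5. The ventral sum was 0 in the median spot of both sections and reached 5.06 and 5.52. At E11.5, 41 members had dorsal and no ventral UMIs, 8 ventral and no dorsal, 8 both and 5 neither, and at E12.5 the counts were 29, 1, 9 and 2, so that 9 of the 10 members with a ventral UMI there also held a dorsal one. These sums rest on 201 and 43 UMIs at E11.5 and 173 and 52 at E12.5, so a value of 0 in a single spot says little.

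**Figure D2:**
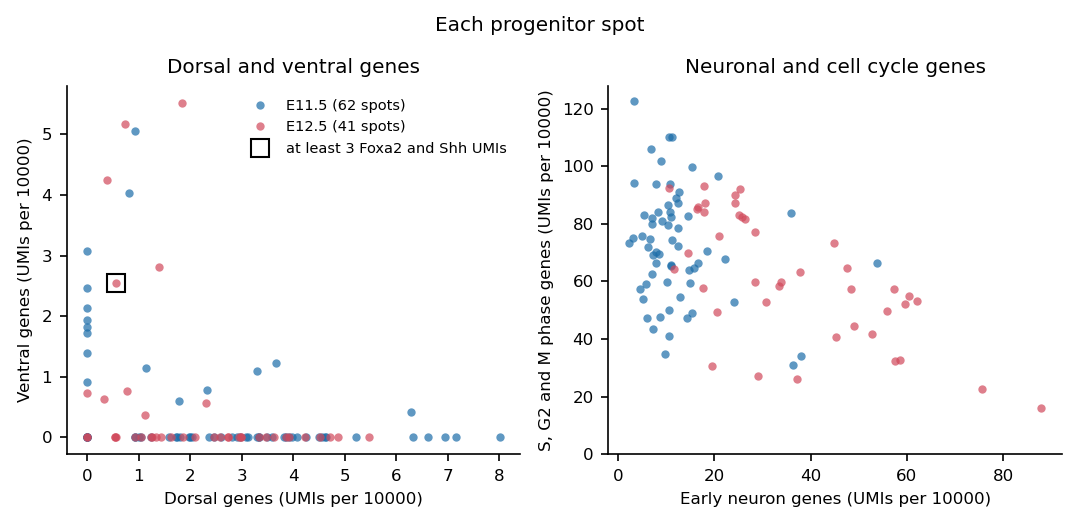
Each point is 1 progenitor spot, E11.5 in blue and E12.5 in red. Left: summed dorsal genes (x axis) against summed ventral genes (y axis), with a box around the spot that held at least 3 UMIs of Foxa2 and Shh; most points lie along the x axis at a ventral level of 0. Right: early neuron genes (x axis) against S, G2 and M phase genes (y axis), all in UMIs per 10000; the E12.5 points reach 87.9 on the x axis and the E11.5 points 53.8.

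At E12.5 most floor plate UMIs came from 1 spot, and the rest were spread over other members. The deepest member, with 35415 UMIs, held 328 of the 488 UMIs of the floor plate list (67.2%). It held 15 of the 15 Foxa2 UMIs and 24 of the 26 Shh UMIs of all members, where Foxa2 is the factor that specifies the floor plate and Shh its secreted signal. It also held 162 of 206 UMIs of Spon1 and 88 of 161 of Ntn1, matrix and guidance proteins made by the floor plate. Of the guidance gene Slit1 it held 26 of 44 UMIs, and of Lmx1b, which dorsal neurons also express, 0 of 23. Pax3 and Msx3 had 0 UMIs in it. The summed floor plate list was 3.53-fold higher in members than in other spots at E12.5 (3.21 to 3.88) and 1.21-fold without this spot. At E11.5 the list had 108 UMIs in the members, 54 of them of Ntn1, with 0 UMIs of Foxa2 and 2 of Shh. The floor plate sum was lower in members than in the 62 and 41 spots ranked next by the same score. It stood at 143 against 303.3 CPM at E11.5 and at 597.5 against 745.6 at E12.5.

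Hox genes, whose paralog groups are expressed in order from the hindbrain to the tail, describe the axial mixture of the members. All 62 and all 41 members held more UMIs of the 39 Hox genes than of the 12 forebrain, midbrain and eye genes. The medians of other spots had the same order, so it is not particular to the members. At E11.5 those medians were 3.42 and 0.424 UMIs per 10000, and at E12.5 10.3 and 0.4395. Summed Hox levels were 2695 CPM in members and 665.5 in other spots at E11.5, and 3078 and 1249 at E12.5. Of 31 Hox genes counted at E11.5, 20 were higher and 3 lower, and of 32 at E12.5, 17 were higher and 8 lower. Groups 1 to 9 were all above the other spots in both sections, with ratios from 2.80 for group 9 to 6.10 for group 4 at E11.5 and from 2.25 for group 7 to 4.20 for group 2 at E12.5. Group 10 stopped this pattern. It lay at 0.7002 (0.391 to 1.16) at E11.5 and 0.205 (0.136 to 0.297) at E12.5, and group 11 had 0 UMIs and then 4, the latter a ratio of 0.146 (0.0398 to 0.376). Within the E12.5 members group 9 reached 749.4 CPM against 325.8 at E11.5. Hoxc9 carried much of this, from 31 UMIs in 11 of 62 members, with 74.2% of them in 5 spots, to 226 in 36 of 41. Hoxb8 was present in 62 of 62 and 38 of 41 members, at 373.5 and 393.1 CPM. The 2 groups of members held different Hox mixtures, and the part of axial level in the stage contrasts was not tested.

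**Figure D3:**
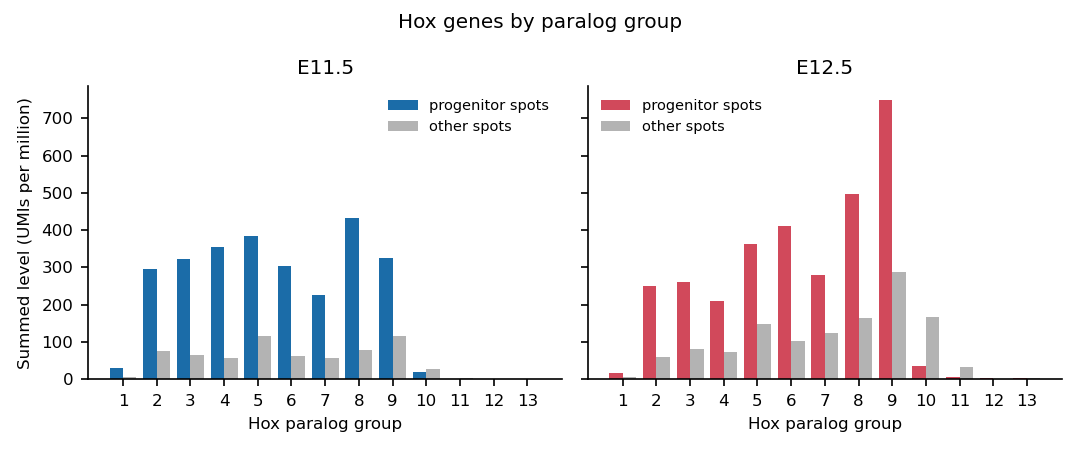
Summed level of the Hox genes of each paralog group (x axis) in CPM (y axis) in progenitor spots (coloured) and other spots (grey), E11.5 left and E12.5 right. Groups 1 to 9 are taller in progenitor spots in both panels, and group 10 is not; group 9 reaches 749.4 at E12.5.

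Few cell cycle genes passed 2-fold, while their summed levels were above those of other spots. Of 18 S phase genes 3 were called higher at E11.5 (Mcm2, Rrm2 and Cdca7) and 1 at E12.5 (Rrm2), and of 18 genes of G2 and M phase 1 in each section (Cenpf), with none lower. At E12.5 these counts lie below the 8.24% of all genes that were higher, and the S phase median log2 ratio of 0.068 below the 0.09 of all genes. The summed S phase level was 1.64-fold that of other spots (1.58 to 1.70) at E11.5 and 1.18-fold (1.13 to 1.24) at E12.5. The G2 and M sum was 1.48-fold (1.42 to 1.54) and 1.47-fold (1.42 to 1.53). Mcm2, part of the helicase that opens replication origins, stood at 344.3 CPM against 143.6 at E11.5 and at 192.2 against 135 at E12.5. Mki67, a protein of dividing cells, had UMIs in 60 of 62 and 40 of 41 members. Against the neuron-rich spots the gap was wider, with an S phase sum of 3659 CPM in members and 709 there at E11.5, and 2411 and 775.3 at E12.5.

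Signalling genes of the tube varied by family. In the Wnt list 10 of 20 genes were higher and 4 lower at E11.5, and 8 of 18 and 5 at E12.5. Wnt7a and Wnt7b, ligands made by the neural epithelium, were 19.6-fold (13.4 to 28.0) and 13.2-fold (11.4 to 15.2) higher at E11.5 and 14.1-fold and 12.8-fold at E12.5. Fzd10, a receptor of the dorsal spinal cord, was 7.56-fold and 10.7-fold higher. Lef1, a nuclear effector of Wnt signalling, was lower on 1 and 2 UMIs, and the secreted enhancer Rspo2 had 0 UMIs in both. Of 11 hedgehog genes only the co-receptor Boc was higher, a share near that of all genes, at 4.27-fold (3.42 to 5.28) and 2.07-fold (1.66 to 2.55), and Gli1, transcribed in response to Shh, was lower in both sections. Gli1 lay at 0.349 (0.174 to 0.626) and 0.192 (0.0704 to 0.420). Of 16 BMP genes counted, 2 were higher and 4 lower at E11.5, and 5 and 2 at E12.5. Over all genes 8.50% were higher and 22.1% lower at E11.5, and 8.24% and 18.2% at E12.5. The list's median log2 ratio was 0.13 and 0.12. The receptor Bmpr1b and the inhibitor Id4 were higher in both sections. The ligands Bmp4 and Bmp7 were lower in both, on 0 UMIs at E11.5, and the ligand Bmp6 was higher at E12.5. Of 17 FGF and retinoid genes counted at E11.5, 5 were higher and 5 lower, and of 16 at E12.5, 4 and 6. The list's median log2 ratio was 0.026 and -0.74. Fgf15, Fgfbp3, Fgfr3 and Rarb were higher in both sections. Lower in both were Aldh1a2, Cyp26b1, Etv4 and Spry4, the last on 0 UMIs. Fgfr3 was 14.9-fold (13.3 to 16.6) and 7.81-fold (6.74 to 9.02) higher and Fgf15 25.5-fold (19.3 to 33.4) and 42.3-fold (31.1 to 57.7). Aldh1a2, the enzyme that makes retinoic acid in the paraxial mesoderm, lay at 0.181 and 0.171. Of 14 and 13 polarity and junction genes counted, Crb2, an apical membrane protein, was the one higher in both, at 6.16-fold (4.26 to 8.66) and 12.7-fold (7.69 to 20.3).

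Other tissues of the section were depleted. The 12 genes named as lower, of 22 that met the rule, were Igf2, Lgals1, H19, Dlk1, Tpm1, Col4a1, Serpinh1, Igfbp4, Maged2, Cd63, Fn1 and Mfap2, with ratios from 0.0777 to 0.448. Igf2, a fetal growth factor of mesoderm, stood at 55.6 CPM against 607.9 at E11.5 and at 96.7 against 1244 at E12.5. H19, the imprinted RNA beside it, lay at 0.113 and 0.0956. Of 10 mesenchyme genes 10 were lower at E11.5 and 9 at E12.5, with summed ratios of 0.0739 (0.0598 to 0.0902) and 0.0874 (0.0766 to 0.0992), and Twist1, a mesenchymal factor, had UMIs in 2 of 62 and 3 of 41 members. Col3a1, a fibrous collagen, still had a UMI in 22 and 32 members, so mesenchymal RNA was low rather than absent. Cartilage genes lay at 0.377 and 0.199, skeletal muscle at 0.130 and 0.0612, endothelium at 0.257 and 0.335, sensory ganglia at 0.146 and 0.583 and neural crest with Schwann precursors at 0.226 and 0.268. Heart and liver genes were present in the E11.5 section, at 1459 and 765.9 CPM in its other spots, and low at E12.5, at 43.6 and 12.48, so the other spots of the 2 sections differ in the organs they hold. Globin and other red cell genes were at 4562 CPM in members against 55374 in other spots at E11.5, and at 4920 against 14301 at E12.5.

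**Figure D4:**
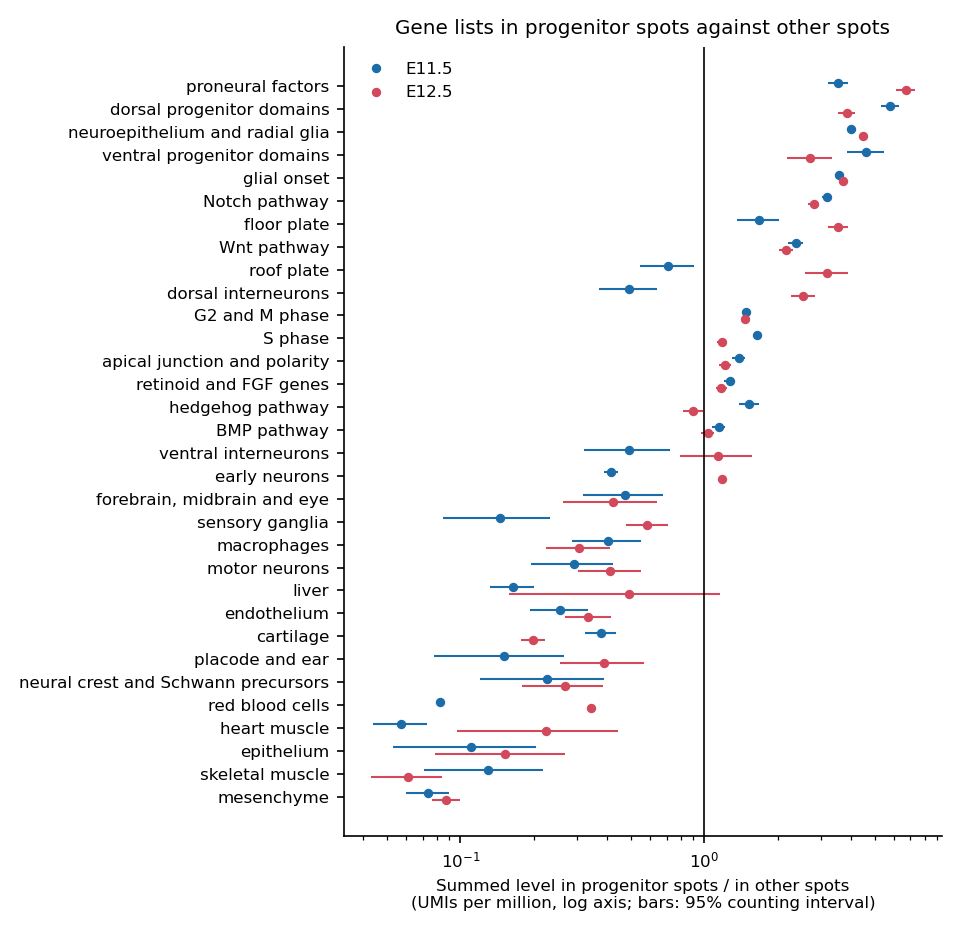
Ratio of the summed level of each gene list in progenitor spots to that in other spots (x axis, log scale), E11.5 in blue and E12.5 in red, with 95% counting intervals. Proneural factors reach 6.68 at E12.5 and mesenchyme lies at 0.0739 and 0.0874 in the 2 sections; early neurons lie at 0.414 and 1.18.

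Members of the 2 sections differed in neuronal RNA. At E11.5, 0 of 15 early neuron genes were higher than in other spots and 9 were lower; at E12.5, 4 were higher and 3 lower. The summed level in members was 1221 CPM at E11.5 and 3681 at E12.5, a ratio of 3.01 (2.80 to 3.25), and in other spots 2948 and 3115, a ratio of 1.06 (1.05 to 1.07). Of 13 early neuron genes counted between stages, 11 were at least 2-fold higher at E12.5 in the members and none lower, where 5.66% of 5686 genes were higher and 1.55% lower. In the other spots 6.49% of 14844 genes were higher and 3.55% lower. Tubb3, the neuronal tubulin, stood at 386.7 and 1068 CPM in members. Stmn2, a growth cone protein, stood at 107.3 and 432.2, and Dcx, a microtubule protein of migrating neurons, at 37.1 and 210.6. The neurofilament Nefl of more mature axons stayed far below the neuron-rich spots, at 35.8 and 62.5 against 1810 and 1861; the neuron-rich spots were chosen on 5 genes of the same list. Other tissues moved too. Within the members the sensory ganglion sum went from 22.5 to 128.6 CPM, a ratio of 5.71 (3.40 to 10.2) against 1.43 in other spots. The mesenchyme sum went from 127.1 to 290.2 CPM, a ratio of 2.28 (1.79 to 2.92) against 1.93 in other spots. The floor plate spot held 55 of the 237 mesenchyme UMIs of the E12.5 members. Without it the sensory ratio was 5.80 and the mesenchyme ratio 1.83. The sensory list shares Pou4f1 with the dorsal interneuron list, its other defining gene Avil had 0 UMIs in the members of both sections, and the part of these tissues in the neuronal contrast was not tested.

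The size of this contrast depended on the lowest score taken. When the E11.5 spots were taken down to the lowest E12.5 score, the early neuron ratio was 1.80. This made 147 spots, 62 of them members. When the E12.5 members were kept down to the lowest E11.5 score, which left 14, the ratio was 1.86. Only the lowest score was made the same, and the scores above it were not matched. The dorsal interneuron list, transcription factors of the neurons born from these domains, gave 5.33 (4.01 to 7.22) in the members and 2.66 and 3.21 under the same choices. Tlx3, which sets the excitatory fate of dorsal neurons, gave 16.2 (7.19 to 45.1), then 14.3 and 15.2, with UMIs in 5 of 62 and 28 of 41 members. Lbx1, of the dorsal association neurons, gave 4.97 (2.31 to 12.2) on 8 and 43 UMIs.

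By rule, Tlx3, Ina, Sulf1, Vtn, Hopx, Hoxc9, Dcx, Insm1, Rtn1 and Ebf3 had the largest stage ratios. Hopx, a small homeodomain protein later found in radial glia, was unlike the neuronal genes of this set. It had 38 UMIs in 24 of 62 members at E11.5 and 304 in 36 of 41 at E12.5, a stage ratio of 7.40 (5.27 to 10.7) against 0.896 in other spots. With the 2 choices of the same lowest score it gave 9.01 and 9.45. After thinning each spot to 5000 UMIs, 23.3% (14.4 to 35.4, Wilson 95%) of E11.5 members and 82.1% (67.3 to 91.0) of E12.5 members held a Hopx UMI, against 4.16% and 4.28% of other spots. Without thinning the shares were 38.7% and 87.8%, against 14.7% and 16.2%. Thinning left out 2 members in each section and 8 and 14 other spots. Ina, an intermediate filament of young neurons, gave 14.6 (8.64 to 26.4) and then 3.04 and 5.90 with the same lowest score. Under the same 2 choices Dcx went from 5.68 to 3.11 and 3.26, and Insm1 from 5.20 to 2.64 and 4.07. Rtn1 went from 5.13 to 2.49 and 2.105, Ebf3 from 5.11 to 2.44 and 3.70, and Hoxc9 from 6.74 to 4.58 and 5.80. Sulf1 and Vtn belonged to the floor plate spot, which held 210 of 220 and 111 of 114 of their UMIs, and without it their stage ratios were 0.690 and 0.264.

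Fewer genes were lower at E12.5. Those named by rule included Moxd1, Dhrs3, Hotairm1, Ajuba, Smug1, Spout1, Creld2, Ormdl2 and Isoc1. Dhrs3, an enzyme that reduces retinaldehyde, gave 0.241 (0.168 to 0.339) against 1.18 in other spots. Hotairm1, an RNA antisense to the front of the Hoxa cluster, gave 0.274 (0.208 to 0.356) against 0.642, and Hoxa3 and Hoxa4 gave 0.526 and 0.344 on 33 and 16 UMIs at E12.5. Since Hotairm1 overlaps its neighbours on the other strand and the use of strand in counting is not stated, reads of the pair may not be separable. Moxd1, a monooxygenase-like protein, had UMIs in 23 of 62 and 10 of 41 members and gave 0.222 (0.152 to 0.319). Moxd1 also depended on the spots taken, at 0.394 and 0.0495 with the same lowest score and 0.641 with Hes5 left out of the score. With E11.5 spots down to the lowest E12.5 score, Spout1, Ormdl2 and Isoc1 gave 0.529, 0.529 and 0.595, short of 2-fold. Their values in the members were 0.351, 0.388 and 0.394. Under that choice Dhrs3, Hotairm1, Ajuba, Smug1 and Creld2 gave 0.375, 0.46, 0.42, 0.41 and 0.49. With E12.5 members down to the lowest E11.5 score, all of these genes stayed below 0.5. Sums of progenitor lists differed by less than 2-fold between stages. The neuroepithelium sum gave 1.28 (1.24 to 1.32), the Notch sum 0.926 (0.866 to 0.989) and the dorsal progenitor sum 1.01 (0.903 to 1.13), against 1.14, 1.05 and 1.52 in other spots. With E11.5 spots down to the lowest E12.5 score these sums gave 1.46, 1.15 and 1.33, and with E12.5 members down to the lowest E11.5 score 1.495, 1.05 and 1.38, which puts the Notch sum on the other side of 1. The ventral progenitor sum gave 0.638 (0.488 to 0.831) against 1.08 in other spots, 0.830 and 0.202 under the same choices, and 1.73 with Hes5 left out of the score. The S phase sum gave 0.659 (0.622 to 0.698) against 0.914 in other spots, and 0.761 and 0.736 with the same lowest score. The G2 and M sum gave 1.04 (0.981 to 1.09). The glial onset sum gave 1.68 (1.59 to 1.76) in members and 1.62 in other spots. Its genes past 2-fold were Nfib and Ptn, at 2.51 and 2.05 in members and 2.64 and 1.94 in other spots. Fabp7 stood at 2014 and 3804 CPM, a ratio of 1.89 (1.78 to 2.01) against 0.983 in other spots. Nfix and Aldh1l1, of later glia, had 0 UMIs at E11.5 and 16 and 15 at E12.5.

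**Figure D5:**
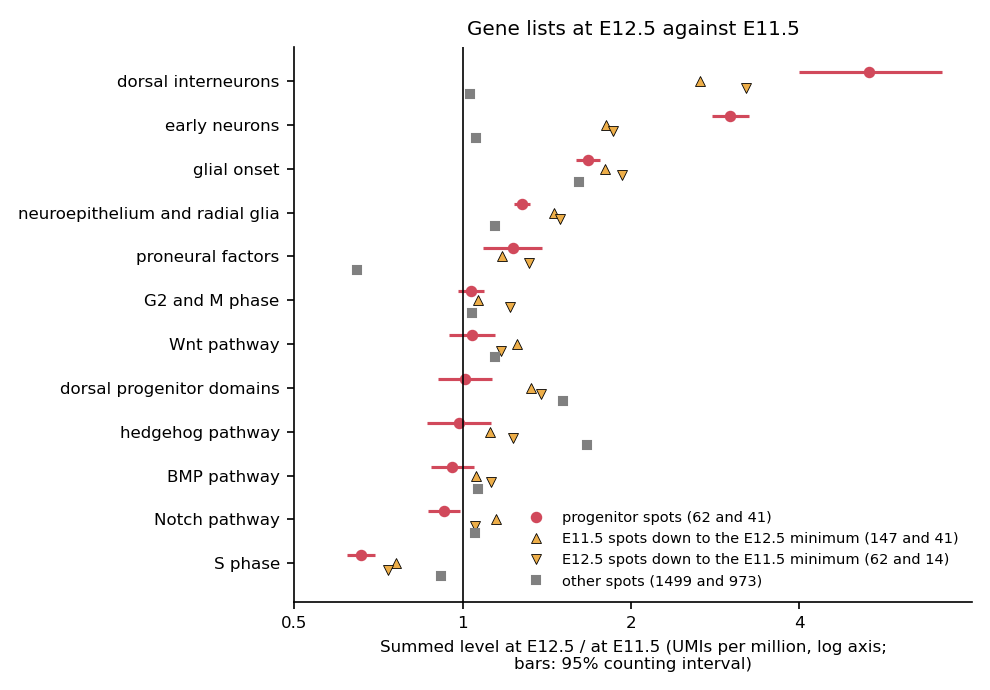
Summed level at E12.5 divided by that at E11.5 (x axis, log scale) for 12 gene lists. Progenitor spots are red circles with 95% counting intervals, spots taken down to the same lowest score yellow triangles, and other spots grey squares. Early neurons lie at 3.01 in progenitor spots, at 1.80 and 1.86 with the same lowest score and at 1.06 in other spots.

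Members also differed from each other in how neuronal they were. Early neuron genes had a lowest, median and highest level of 2.29, 10.6 and 53.8 UMIs per 10000 in E11.5 members and 10.6, 29.1 and 87.9 in E12.5 members, against medians of 6.66 and 4.91 in other spots. The ranges of the 2 groups overlap, and the E12.5 median lies within the E11.5 range. Cell cycle genes had a lowest, median and highest level of 30.8, 72.2 and 122.6 at E11.5 and 16.0, 59.7 and 93.3 at E12.5. Across the 41 members of E12.5 the 2 levels ran against each other, with a Pearson r of -0.67 and a Spearman rho of -0.67, as a description of spots that share 1 library. At E11.5 these were -0.24 and -0.13 over 62 members. Both levels are shares of the same total, and in the E12.5 members the cell cycle level itself had a rho of -0.52 with the UMIs of the spot, so the part of depth was not tested. Neuroepithelium genes spanned 41.1 to 188.3 UMIs per 10000 at E11.5 and 40.8 to 212.1 at E12.5, and the members' medians, 79.7 and 93.2, exceeded those of 98.0% and 99.4% of other spots.

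The 62 and 41 spots ranked next by the same score held more neuronal RNA than the members in both sections. Their neuroepithelium sum was 7626 CPM at E11.5 against 8461 in members and 2124 in all other spots, and 5767 at E12.5 against 10805 and 2424. Their early neuron sum was 1781 against 1221 in members at E11.5, and 7266 against 3681 at E12.5. The neuron-rich spots held 16708 and 16877, and none of the next-ranked spots was neuron-rich in either section. The ventral progenitor sum was 141.9 CPM in next-ranked spots against 188.1 in members at E11.5, and 147.8 against 120 at E12.5. The dorsal progenitor sum was 554 against 815.8 at E11.5, and 442.4 against 822.9 at E12.5. At E13.5 the same score found no comparable spot. Of 1360 spots there, 0 reached the lowest member score of E12.5 and 0 that of E11.5, and Msx3 had 0 UMIs over the section. Which of stage, plane or axial level this follows cannot be told apart.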

How the data were processed

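Raw UMI counts of genes in spots were deposited for 3 sections and come from Space Ranger 1.2.0, per the file headers. The submitters' processing notes also name STAR and mm10. An annotation release, strand setting and rule for keeping spots were not found in the sources used. Each file lists 32285 genes, 32158 of them with an ID in the reference gene table. Spot positions and images were not used here.

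Spots with at least 1000 UMIs were kept, which left out 2 spots at E11.5 and 0 at E12.5. UMIs were pooled over members and over the other spots of the section, and levels are UMIs per 1000000. Ratios carry exact conditional binomial 95% intervals, which cover counting error only. Medians of log2 ratios add 0.5 UMI to each count. A count of 0 allows up to 3 UMIs. Genes were counted from 50 UMIs up at a fold of 2, between stages over the members of both sections. Named genes are the 12 in each direction with the largest fold in both sections (for higher genes at least 100 UMIs in the members of each section, for lower genes 100 in both together) and the 10 in each direction with the largest stage ratio and at least 100 UMIs. The 4 scoring genes, unnamed gene models, repeated symbols, Xist and Y-linked genes and genes of globins, mitochondria and ribosomal proteins were left out. Genes of 32 lists were added. Some genes of the rule and the lists are not reported here. The members, lists and rules were chosen with earlier results of these data known, so no list is independent evidence. No doublet caller applies to spots. The steps were tested on simulated data. Alternatives varied the share of spots, the scoring genes, the depth and gene minimums, the scaling and the reference spots. Python 3.11.15 was used with numpy 2.4.6, scipy 1.17.1, pandas 2.3.3 and matplotlib 3.10.9.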

Additional observations from a re-analysis of the deposited data

Results flagged for a closer look

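Some genes lay on opposite sides of a 2-fold difference in the 2 sections, and the difference itself was not tested. Of 13072 genes counted in both sections, 110 did so. Those among the named genes and the lists follow. Sulf1, an enzyme that edits heparan sulfate, lay at a ratio of 0.190 at E11.5 and 2.71 at E12.5, and Vtn, a matrix protein, at 0.241 and 3.22; both rest on the floor plate spot at E12.5. Msx1 lay at 0.419 and 7.92, and its level in other spots was 56.9 and 5.88 CPM. Nhlh2, a factor of newborn neurons, lay at 0.398 and 2.76, and Ntrk3, a neurotrophin receptor, at 0.378 and 2.76.

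The E13.5 section, which the rule does not use, still held some scoring transcripts: 124 UMIs of Sox2, 32 of Hes5 and 21 of Sox3 over 1360 spots, all above the 3 UMIs that a count of 0 allows.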

How the results depend on the processing

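The numbers of called genes were compared under 18 other settings, 4 of them chosen after seeing the data; of 124 such counts 112 stayed within 1.5 times the value reported. Genes higher in members at E11.5 ranged from 794 to 1486 around 1187 under the 15 settings that apply to it. The setting that kept members with more Hox than forebrain UMIs kept all 62 and 41, so it could change no value. Leaving out the floor plate spot could change no value of E11.5 alone. Both settings are included in these totals and in the gene and list values below. With a gene minimum of 200 UMIs, 1880 genes were lower at E11.5, 697 higher and 1412 lower at E12.5, 343 higher and 924 lower in both sections, and 51 higher and 17 lower at E12.5 than at E11.5. That minimum removes the thinly counted genes. With a minimum of 20 UMIs, 826 were higher and 230 lower between stages. Genes higher at E12.5 within members numbered 188 with the top 3% of spots, 489 with E11.5 spots taken down to the lowest E12.5 score and 131 with E12.5 members kept down to the lowest E11.5 score, against 322.

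Of 923 gene values and 1312 list values, 7 and 3 that had been at least 2-fold moved to the other side of 1. A further 67 list values, all under 2-fold as reported, also did so, 35 of them outside the counting interval. With the top 3% of spots the E12.5 log2 ratios were -0.25 for ventral progenitor domains and -0.52 for the floor plate list, and the stage log2 ratios -0.84 for Sulf1 and -1.48 for Vtn. With the score without Sox2 they were -0.044 for the floor plate list, -1.45 for Sulf1 and -1.38 for Vtn. Without the floor plate spot Sulf1 stood at -0.53 and Vtn at -1.92, and Sulf1 at -0.84 in the E12.5 members down to the lowest E11.5 score. The top 3% and the higher E12.5 score minimum leave out the floor plate spot, which ranked 37 of 41. For the score without Sox2 and for ventral progenitor domains the cause was not tested. In the floor plate spot Sox2 had 19 UMIs, Hes5 9, Sox3 2 and Msx3 0. The top 3% held 30 spots at E12.5. Outside it, the members ranked 34, 37, 38 and 41 held 7, 9, 11 and 15 of the 52 UMIs of the 6 ventral genes. Besides the 7 and 3, 86 gene and 262 list values, the 35 included, left the counting interval of the value reported. No paired analysis was possible because each stage is 1 section. The low depth of E11.5 members limits sparse genes, and all intervals omit variation between embryos.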
